A study of Mus musculus with 6 samples.

Results

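A set of 17 genes was all but silent in wild-type A20 cells and was detected in every library of A20 cells that carried the TETact-v3 activator. The members were chosen from the raw counts by a fixed limit on each side, which was at most 3 counts in each of the 2 wild-type libraries and at least 1 CPM (the count divided by the library's total and multiplied by 1000000) in each of the 4 TETact-v3 libraries. The limits took 17 of 27179 counted gene identifiers, or 17 of the 12199 named genes that held at most 3 counts in both wild-type libraries. Another 2 genes that met the limits, Tgfb3 and Tex101, were left out by name. Of the 17 members, 16 code for proteins (A4galt, Ly6k, Tuba3a, Upk1b, Mtus2, Ppara, Papss2, Pcdhgb4, Pdia5, Dpysl5, Cmtm8, Myrf, Foxo6, Igfbp2, Igdcc4 and Stra6) and Gm2762 is a long non-coding RNA. Since the counts chose the members, their levels against wild type are given as a description and without a test.

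A20 is a B-cell lymphoma line of BALB/C mice, and polyA RNA was sequenced from 3 groups with 2 replicates each. Wild-type A20 cells had not been transduced. Control sgRNA cells carried lentiviral TETact-v3 and a non-targeting sgRNA, and Cd4 sgRNA cells carried the same system with an sgRNA directed to the Cd4 promoter, both sorted as bulk populations and collected a week after sgRNA transduction. In TETact-v3, dCas9 brings the catalytic domain of TET1 by way of a SunTag and the p65-hsf1 activator by way of MS2 loops in the sgRNA, so every transduced cell shared these proteins and the vectors, whereas the wild-type cells had neither. The parts of TETact-v3, of transduction and of sorting in a difference from wild type therefore cannot be told apart.

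TET enzymes oxidise methylated cytosine, the first step in removing DNA methylation, and they act at CpG dinucleotides. Promoters rich in CpG are mostly unmethylated and open even where the gene is off, but a share of them is methylated in differentiated cells and in tumour lines, and genes of the germline are the best known of that kind. Genes of other lineages can also be silent for lack of their transcription factors, without methylation.

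The CpG content before the gene start was looked up in RefSeq (GRCm38.p6, which is the mm10 build of the counts) for the 250 bases upstream of the outermost listed start. The promoter table held an entry for 12 of the 17 members, and not for Ly6k, Upk1b, Pcdhgb4, Myrf and Foxo6. In the members Mtus2, Ppara, Papss2, Pdia5, Igdcc4 and Stra6 part or all of this window lies inside the span that RefSeq gives the gene, since transcripts with starts further out exist, and their windows are counted but not shown. The 5 windows below lie outside the gene and are shown because they range from CpG-rich to CpG-poor and include the member with the highest CPM. They are written 5′ to 3′ on the strand of the gene, with each CpG in capitals. The window of Cmtm8 is chr9:114844153-114844402 (minus strand), that of Igfbp2 chr1:72824230-72824479 (plus), that of A4galt chr15:83251730-83251979 (minus), that of Tuba3a chr6:125286082-125286331 (minus) and that of Gm2762 chr13:53393439-53393688 (plus).
Cmtm8: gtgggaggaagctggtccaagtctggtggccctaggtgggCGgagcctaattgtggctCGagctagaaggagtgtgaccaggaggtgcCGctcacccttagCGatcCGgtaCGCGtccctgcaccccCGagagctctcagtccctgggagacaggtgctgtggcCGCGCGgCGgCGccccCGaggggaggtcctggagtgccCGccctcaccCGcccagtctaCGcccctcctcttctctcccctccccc
Igfbp2: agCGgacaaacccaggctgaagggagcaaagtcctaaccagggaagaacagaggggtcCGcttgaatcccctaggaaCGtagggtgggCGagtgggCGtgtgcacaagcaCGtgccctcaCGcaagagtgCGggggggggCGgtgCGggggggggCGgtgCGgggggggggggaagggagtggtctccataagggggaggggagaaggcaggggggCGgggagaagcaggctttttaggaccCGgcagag
A4galt: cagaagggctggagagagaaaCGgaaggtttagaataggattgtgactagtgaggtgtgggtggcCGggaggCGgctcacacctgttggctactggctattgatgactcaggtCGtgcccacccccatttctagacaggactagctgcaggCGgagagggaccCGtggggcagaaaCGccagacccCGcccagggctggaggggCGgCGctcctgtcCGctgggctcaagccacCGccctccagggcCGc
Tuba3a: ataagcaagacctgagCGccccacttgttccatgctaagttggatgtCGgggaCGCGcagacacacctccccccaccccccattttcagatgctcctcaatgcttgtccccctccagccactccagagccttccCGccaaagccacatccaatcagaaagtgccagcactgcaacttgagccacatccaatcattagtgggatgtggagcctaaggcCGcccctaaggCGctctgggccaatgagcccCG
Gm2762: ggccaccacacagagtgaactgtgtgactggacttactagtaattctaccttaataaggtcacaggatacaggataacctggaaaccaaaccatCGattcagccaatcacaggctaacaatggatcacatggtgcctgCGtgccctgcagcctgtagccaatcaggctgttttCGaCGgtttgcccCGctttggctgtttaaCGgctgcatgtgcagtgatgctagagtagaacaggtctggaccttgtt

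Of the windows shown, that of Cmtm8 held 17 CpG, Igfbp2 14, A4galt 13, Tuba3a 8 and Gm2762 6. The other members with an entry held 39 (Igdcc4), 27 (Ppara), 24 (Papss2), 20 (Mtus2), 17 (Dpysl5), 10 (Pdia5) and 4 (Stra6). The median over the 12 members was 15.5 CpG. The same window held a median of 9 CpG over the 18458 named genes with an entry, of 3 CpG over the 7159 genes that stayed at or under 3 counts in all 6 libraries, and of 17 CpG over the 8357 genes with at least 1 CPM in both wild-type libraries. At least 10 CpG were found in 9 of the 12 members (75%), in 49.9% of all genes with an entry, in 20.5% of the genes silent throughout and in 78.0% of the genes expressed in wild type. The members' median thus lay closer to that of expressed genes than to that of genes silent throughout, with Stra6, Gm2762 and Tuba3a under 10 CpG. Members and compared sets were all chosen by counts in these same libraries, and members had to be detected in 4 of them. The comparison is therefore a description and no test. CpG counts describe the sequence only, and methylation was not analysed here.

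**Figure D1:**
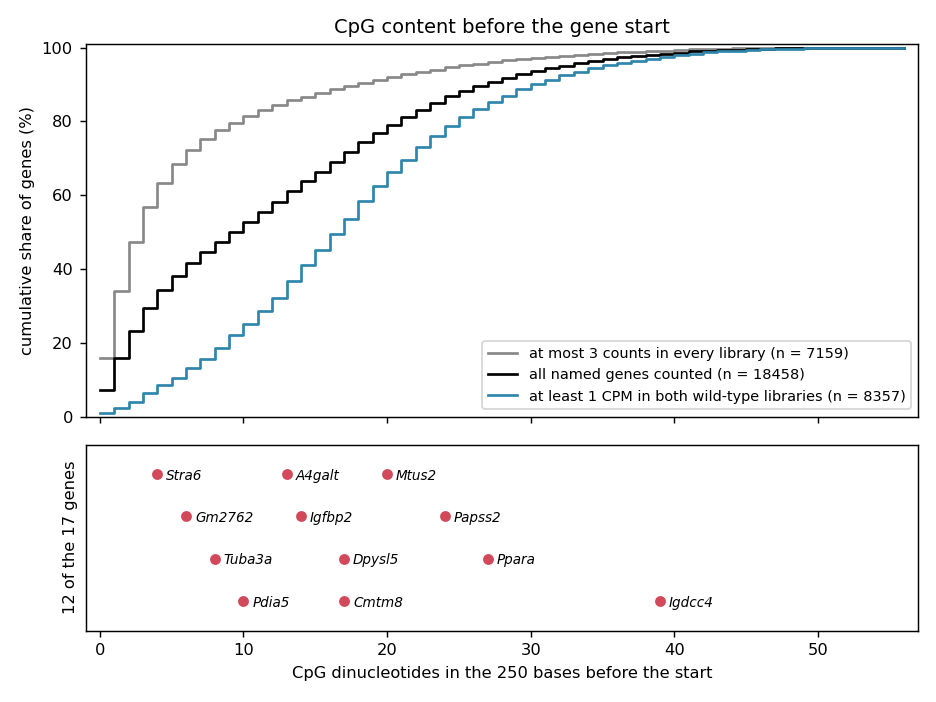
Upper panel, cumulative share of genes (%) against the number of CpG dinucleotides in the 250 bases before the start, for genes at most 3 counts in every library (grey), all named genes (black) and genes with at least 1 CPM in both wild-type libraries (blue). Lower panel, the 12 members with an entry on the same axis (their height only separates the names), from 4 CpG in Stra6 to 39 in Igdcc4.

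Short sequence motifs were counted in the same windows on either strand. GGGCGG, the core of the GC box, was present in 10 of the 12 members and in 42.4% of all 18458 windows. The median share of G and C was 65.6% in the members' windows and 55.2% in all windows. The motif was not compared at an equal share, so no enrichment is read from it. CCAAT was present in 4 members (Tuba3a, Mtus2, Gm2762 and Stra6) and in 36.4% of all windows. TGACTCA, an AP-1 site, was present in A4galt and in 4.12% of all, and CACGTG, the E-box of MYC, in Igfbp2 and in 6.72% of all. TATAAA (12.1% of all windows), CCGGAAG (8.98%), GAANNTTC, a part of the heat shock element (6.28%), and the consensus letters of the NF-kB site (1.40%) were found in none of the 12, which says only that these letters are not in these windows.

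Gains of this size were rare among the genes silent in wild type. Of the 12199 genes with at most 3 counts in both wild-type libraries, between 29 and 42 reached 1 CPM in a given TETact-v3 library, 22 reached it in both control sgRNA libraries, 25 in both Cd4 sgRNA libraries and 19 in all 4 (0.156%). In contrast, 12142 genes (99.5%) stayed under 1 CPM in all 4, and 8181 (67.1%) held 0 counts in all 4. The wild-type libraries held 49778949 and 23194920 counts, so that 3 counts stood for 0.0603 and 0.129 CPM there, and 1 CPM would have been 49.8 and 23.2 counts. The TETact-v3 libraries held 35316997 to 121623410 counts. Together the 17 members took 0.362 and 0.259 CPM in wild type, and 51.3 to 63.7 CPM in the TETact-v3 libraries.

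The library labels were checked by Cd4, with 30959 and 40422 counts in the Cd4 sgRNA libraries and 17 to 127 in the other 4. The 10 B-cell markers were detected in all libraries, with a summed level of 9297 and 9325 CPM in wild type and of 4867 to 7722 CPM in the TETact-v3 libraries. All 10 T-cell markers stayed under 1 CPM in all libraries (sum 0.683 to 1.07 CPM), the sum of 10 myeloid markers was 4.01 and 4.10 CPM in wild type and 1.64 to 6.13 CPM in TETact-v3 cells, and that of 8 plasma-cell markers 1143 to 1430 CPM over all libraries. Within that last sum single markers moved apart: against wild type, edgeR called Irf4 (log2 fold change 1.82 in control sgRNA and 1.69 in Cd4 sgRNA cells), Derl3 (1.62 and 1.90) and Sdc1 (0.73 and 0.93) higher in both groups and Xbp1 (-0.60 and -0.50) lower in both. Prdm1, the regulator of plasma-cell differentiation, was called higher in control sgRNA cells (2.42, adjusted p = 0.0365) and stood at 1.07 in Cd4 sgRNA cells (adjusted p = 0.298). The sum of 10 fibroblast markers was 1.17 and 1.47 CPM in wild type, 8.15 and 10.6 CPM in Cd4 sgRNA cells, and 14.8 and 34.8 CPM in control sgRNA cells. This sum came mostly from Vim and Pdgfrb, while Col1a2, Lum and Thbs1 were at 0 counts in all 6 libraries. The share of mitochondrial counts was 2.65% and 2.69% in wild type, 5.96% to 6.90% in 3 of the TETact-v3 libraries and 11.5% in control sgRNA replicate 2. The part of these differences in the members' levels was not tested, and in bulk RNA a gene that is on in few cells and one that is weakly on in all cells cannot be told apart.

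**Figure D2:**
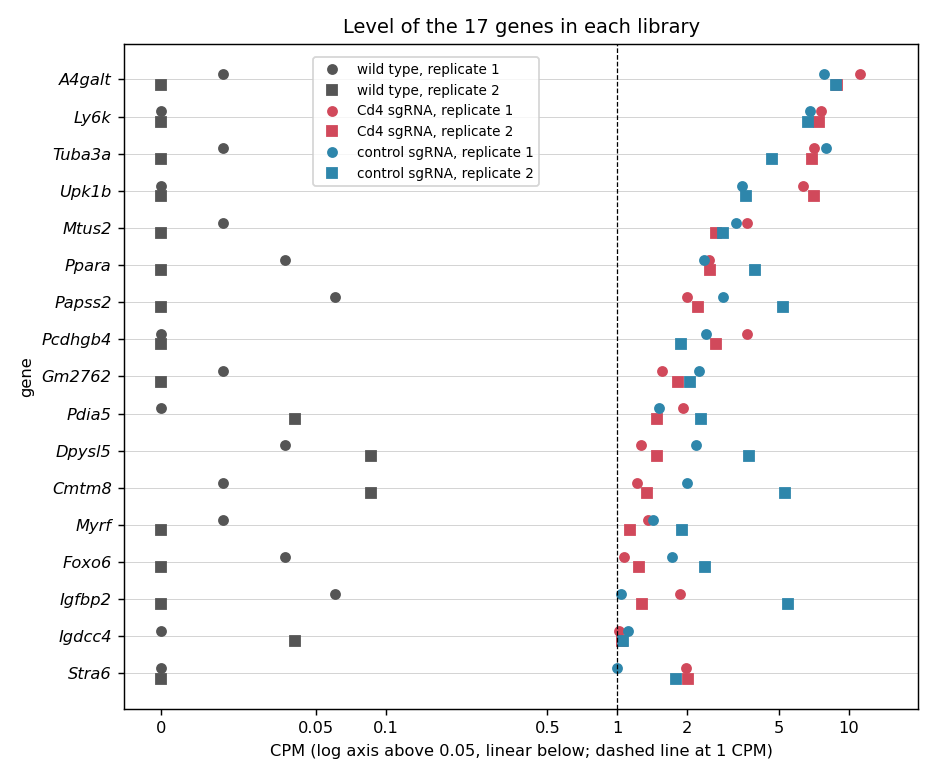
CPM of the 17 members in each of the 6 libraries (x axis, logarithmic above 0.05 CPM and linear below; circles replicate 1, squares replicate 2), ordered by their lowest CPM in the TETact-v3 libraries. All wild-type points lie under 0.1 CPM and all TETact-v3 points at or to the right of the dashed line at 1 CPM, as the rule requires.

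Enzymes made up 3 of the members. A4galt, which adds the last galactose of the globo-series glycolipid Gb3 (CD77), had 1 and 0 counts in wild type, 11.2 and 8.93 CPM in the Cd4 sgRNA libraries and 7.85 and 8.82 CPM in the control sgRNA libraries. It had the highest CPM of the 17 genes, and the lowest Cd4 sgRNA library lay just above the highest control sgRNA library. Over the pooled libraries of each group the ratio of control sgRNA to wild type was 603, with a 95% counting interval of 108 to 23850. This width shows how little a single wild-type count fixes the size of a fold. Low wild-type counts chose the gene, so the interval is no test, and it leaves out the spread between replicates. Papss2, which makes the sulfate donor PAPS, had 3 and 0 counts in wild type, 2.01 and 2.23 CPM in Cd4 sgRNA cells and 2.85 and 5.19 CPM in control sgRNA cells. Pdia5, a protein disulfide isomerase of the endoplasmic reticulum, had 0 and 1 counts, then 1.93 and 1.49 CPM and 1.52 and 2.31 CPM in the same order. The groups of TETact-v3 cells did not overlap for Papss2, with control sgRNA higher, and overlapped for Pdia5.

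Regulators of transcription were another 3. Ppara, the nuclear receptor that drives fatty acid oxidation, had 2 and 0 counts in wild type, 2.49 and 2.52 CPM with the Cd4 sgRNA and 2.38 and 3.96 CPM with the control sgRNA. Foxo6, a forkhead factor known from the brain, had 2 and 0 counts, 1.08 and 1.24 CPM, and 1.72 and 2.41 CPM. Myrf, the membrane-bound factor that oligodendrocytes need to form myelin, had 1 and 0 counts, 1.36 and 1.13 CPM, and 1.43 and 1.91 CPM. For Foxo6 and Myrf both control sgRNA libraries lay above both Cd4 sgRNA libraries, and for Ppara the groups overlapped.

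Genes of the cell surface and of secreted proteins were the largest group, with 7 members. Ly6k, a GPI-anchored protein of the testis and of several carcinomas, was at 0 counts in both wild-type libraries, at 7.59 and 7.43 CPM in Cd4 sgRNA cells and at 6.82 and 6.65 CPM in control sgRNA cells. Its 4 TETact-v3 libraries were close to each other. For genes at 0 in wild type, a floor of 3 counts over both wild-type libraries (0.0411 CPM) was set. The pooled level of Ly6k was 164 times this floor in control sgRNA and 182 times in Cd4 sgRNA cells. Such multiples describe the levels and are no lower bounds, since the error of the pooled level and the choice of the genes are left out. Upk1b, a tetraspanin of the urothelial plaque, was likewise at 0 in wild type. It stood at 6.37 and 7.06 CPM in Cd4 sgRNA against 3.45 and 3.61 CPM in control sgRNA cells, 165 and 85.6 times the floor. The replicates of each group were close, and the Cd4 sgRNA libraries lay well above the control sgRNA libraries. Pcdhgb4, a clustered protocadherin of neuronal adhesion, was at 0 counts in wild type. It stood at 3.65 and 2.68 CPM in Cd4 sgRNA and 2.43 and 1.89 CPM in control sgRNA cells (75.2 and 53.3 times the floor). Stra6, the cell-surface receptor for retinol-binding protein, was at 0 in wild type. It stood at 1.98 and 2.02 CPM in Cd4 sgRNA and 1.00 and 1.80 CPM in control sgRNA cells (48.8 and 32.7 times the floor). For all 4 of these genes both Cd4 sgRNA libraries lay above both control sgRNA libraries. The same held for 5 members in all and for 32.9% of all genes tested. It is therefore not read as a trait of the genes at 0 in wild type.

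Another 3 surface and secreted members were Igdcc4, Cmtm8 and Igfbp2. Igdcc4, an immunoglobulin-like receptor related to DCC, had 0 and 1 counts in wild type and the narrowest range, from 1.02 to 1.11 CPM, in the 4 TETact-v3 libraries. Cmtm8, a MARVEL-domain protein that promotes internalisation of the EGF receptor, had 1 and 2 counts in wild type, 1.22 and 1.34 CPM in Cd4 sgRNA and 2.00 and 5.33 CPM in control sgRNA cells. Igfbp2, a secreted protein that binds insulin-like growth factors, had 3 and 0 counts in wild type, 1.87 and 1.28 CPM in Cd4 sgRNA and 1.04 and 5.47 CPM in control sgRNA cells. For Cmtm8 and Igfbp2 a single library, control sgRNA replicate 2, was far above the other 3.

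Proteins of the cytoskeleton were another 3 members. Tuba3a, an alpha-tubulin of the testis and the only member on the list of germline genes silenced by methylation, had 1 and 0 counts in wild type, 7.05 and 6.97 CPM in Cd4 sgRNA and 7.98 and 4.67 CPM in control sgRNA cells. Its near-identical copy Tuba3b, elsewhere on chromosome 6, was at 0 counts in both wild-type libraries, 1.81 and 1.42 CPM in Cd4 sgRNA and 1.85 and 0.704 CPM in control sgRNA cells, and so missed the limit in 1 library. How reads that fit both copies were assigned is not given in the sources used here, so the split between them is uncertain. Mtus2, a microtubule-associated protein, had 1 and 0 counts in wild type and 2.68 to 3.62 CPM in the TETact-v3 libraries, with overlapping groups. Dpysl5, a protein of the CRMP family that acts in growing axons, had 2 and 2 counts in wild type, 1.27 and 1.49 CPM in Cd4 sgRNA and 2.19 and 3.70 CPM in control sgRNA cells, which did not overlap. The long non-coding RNA Gm2762 had 1 and 0 counts in wild type, 1.56 and 1.84 CPM in Cd4 sgRNA and 2.25 and 2.07 CPM in control sgRNA cells.

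Per kilobase of exon (RPKM, the CPM divided by the exon length in kilobases) the order of the members changed. Ly6k led with a median over the 4 TETact-v3 libraries of 9.21 RPKM, followed by Tuba3a at 4.65, A4galt at 4.08, Upk1b at 2.82 and Cmtm8 at 1.57 RPKM, and the lowest was Igdcc4 at 0.170 RPKM. Among the 10418 genes with at least 1 CPM in each of the 4 TETact-v3 libraries, Ly6k stood at the 41.2 percentile of RPKM, Tuba3a at the 24.9, A4galt at the 22.6 and Upk1b at the 16.6 percentile. The other 13 members stood between the 0.0768 and the 9.20 percentile.

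The limits of the rule cut through a continuum. Just inside the limit of 1 CPM lay Stra6, Igdcc4 and Igfbp2, with lowest TETact-v3 values of 1.00, 1.02 and 1.04 CPM, and just outside lay Tsc22d1, Stard13 and Col6a5, with 0.986, 0.949 and 0.929 CPM. Just inside the limit of 3 counts lay Igfbp2, Papss2 and Foxo6, with at most 3, 3 and 2 counts in a wild-type library, and just outside lay Sox12, Vcam1 and Capn2, with 4, 4 and 5 counts. Sox12 had 4.93 to 13.8 CPM and Vcam1 1.25 to 7.63 CPM in the TETact-v3 libraries. A rule that asked for 0 counts in wild type would have kept 4 genes (Ly6k, Upk1b, Pcdhgb4 and Stra6), and one that asked for 2 CPM in place of 1 would have kept 7.

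Between Cd4 sgRNA and control sgRNA cells the rule chose no direction, since the 4 TETact-v3 libraries had to meet the same limit. A gene that was on with one sgRNA and off with the other could not be a member, so this comparison covers only genes detected with both. It asks whether the sgRNA against the Cd4 promoter changed the level of the gained genes. In edgeR's quasi-likelihood test over 12418 genes, which included all 17 members, 0 members passed an adjusted p of 0.05 in either direction, against a background of 0.0725% of all genes tested. DESeq2 called 1 member higher (Upk1b) and 1 lower (Cmtm8), and voomLmFit, the study's own test, called 0. The shares of all genes that DESeq2 and voomLmFit called are not given here. At an unadjusted p under 0.05, edgeR had 5 of the 17 members, next to 24.9% of all genes. The median log2 fold change (Cd4 sgRNA over control sgRNA) was -0.21 over the members and -0.0078 over all genes tested.

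Upk1b had the smallest p of the members, with a log2 fold change of 0.89 ± 0.16 (SE, n = 2 per group) and an adjusted p of 0.113 in edgeR. Over 14 alternative fits its log2 fold change ran from 0.80 to 0.97. The other members on the higher side with groups that did not overlap were Stra6 (log2 fold change 0.51 ± 0.37, edgeR adjusted p = 0.405), Pcdhgb4 (0.49 ± 0.24, adjusted p = 0.260), A4galt (0.22 ± 0.16, adjusted p = 0.401) and Ly6k (0.12 ± 0.14, adjusted p = 0.609). In CPM, both Cd4 sgRNA libraries stood above both control sgRNA libraries for these 5 members, against 32.9% of all genes.

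On the lower side Cmtm8 had the largest difference, with a log2 fold change of -1.53 ± 0.53 and an edgeR adjusted p of 0.159. Dpysl5 followed at -1.10 ± 0.33 (adjusted p = 0.141), Igfbp2 at -1.08 ± 0.78 (adjusted p = 0.383), Papss2 at -0.94 ± 0.35 (adjusted p = 0.171) and Foxo6 at -0.85 ± 0.29 (adjusted p = 0.158). Myrf stood at -0.46 ± 0.27 (adjusted p = 0.304). Both Cd4 sgRNA libraries stood below both control sgRNA libraries for 7 members (Papss2, Gm2762, Dpysl5, Cmtm8, Myrf, Foxo6 and Igdcc4), against 26.7% of all genes. The groups overlapped for Tuba3a, Mtus2, Ppara, Pdia5 and Igfbp2. Misses of the threshold with 2 libraries a group do not show that the sgRNA made no difference, and the SE of 0.14 to 0.78 set what could be seen.

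**Figure D3:**
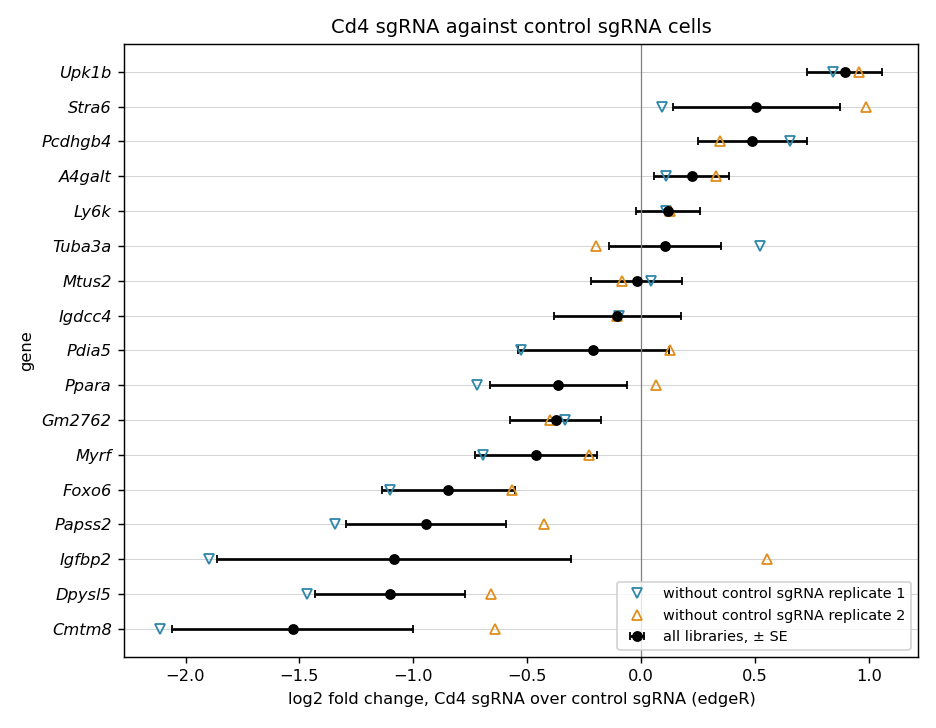
Log2 fold change of each member, Cd4 sgRNA over control sgRNA, from edgeR (filled circles with SE, 2 libraries a group) and the same value without control sgRNA replicate 1 (downward triangles) or replicate 2 (upward triangles). Igfbp2 moved from -1.90 to 0.55 between these, whereas Upk1b stayed near its value of 0.89.

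The log2 fold changes moved when a control sgRNA library was left out. Without control sgRNA replicate 1 they ran from -2.11 for Cmtm8 to 0.84 for Upk1b. Without control sgRNA replicate 2 they ran from -0.66 for Dpysl5 to 0.99 for Stra6, with Cmtm8 at -0.64 and Upk1b at 0.96. In each of these fits the lone control library was assumed to vary like the other groups. Calls from fits with a single library in a group are therefore not counted here.

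The ratio of control sgRNA replicate 2 to replicate 1 in CPM ran from 0.586 in Tuba3a to 5.28 in Igfbp2, while the ratio of the Cd4 sgRNA replicates ran from 0.685 to 1.18. Control sgRNA replicate 2 was the higher one in 11 of the 17 members, next to 44.3% of all genes tested. Replicates more than 2-fold apart were found for Igfbp2 and Cmtm8 (2.67), 2 of 17 members next to 6.46% of all genes. Papss2 (1.82), Stra6 (1.79), Dpysl5 (1.69) and Ppara (1.66) followed. Outside the members, the mesenchymal filament gene Vim stood at 9.82 and 26.0 CPM and the ligand gene Wnt6 at 1.43 and 10.1 CPM in control sgRNA replicates 1 and 2. The part of that library's other differences, its mitochondrial share of 11.5% included, in the members' ratios was not tested.

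**Figure D4:**
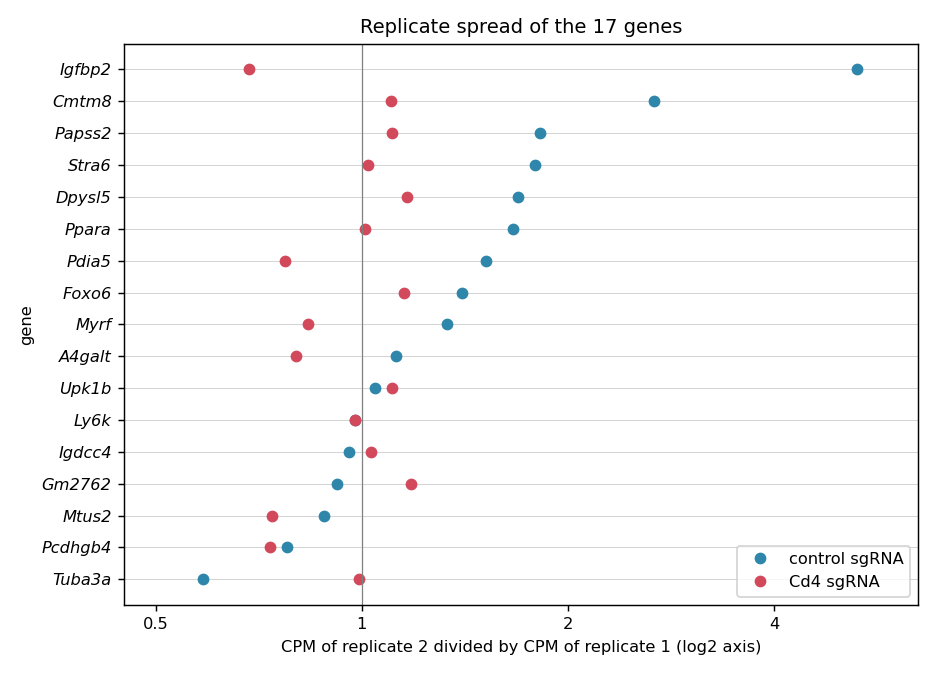
CPM of replicate 2 divided by CPM of replicate 1 (log2 axis) for each member in control sgRNA cells (blue) and Cd4 sgRNA cells (red). The control sgRNA ratios spread from 0.586 to 5.28 and the Cd4 sgRNA ratios from 0.685 to 1.18.

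The members were scattered over the genome. By the spans of RefSeq (GRCm38.p6), chromosome 15 held 3 members, Ly6k at chr15:74796874-74799968, A4galt at chr15:83226722-83251729 and Ppara at chr15:85734910-85806851. Chromosome 9 held another 3, Stra6 at chr9:58063793-58154004, Igdcc4 at chr9:65101023-65137947 and Cmtm8 at chr9:114789343-114844152. Chromosomes 5, 16 and 19 held 2 each, Dpysl5 at chr5:30711564-30799369, Mtus2 at chr5:147957275-148316065, Pdia5 at chr16:35397308-35490919, Upk1b at chr16:38773182-38800203, Myrf at chr19:10208271-10240777 and Papss2 at chr19:32595669-32667187. The rest lay alone, Igfbp2 at chr1:72824480-72852474, Foxo6 at chr4:120267078-120287261, Tuba3a at chr6:125278270-125286081 and Gm2762 at chr13:53393689-53455630, with Pcdhgb4 on chromosome 18. The closest pair, A4galt and Ppara, was 2.48 Mb apart, so no pair lay within 100 kb. Tuba3a lies 390 kb from Cd4 on chromosome 6, and it was as high in control sgRNA as in Cd4 sgRNA cells within their spread.

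Genes next to the members were examined to see whether the gains reached beyond a single gene. Within 100 kb of a member, and without overlapping it, 160 genes were annotated, 88 were in the count files and 50 could be tested. Against wild type, edgeR called 4 of the 50 higher and 6 lower in control sgRNA cells (8% and 12%, against 14.5% and 13.5% of all genes tested), and 1 higher and 3 lower in Cd4 sgRNA cells (against 9.85% and 10.7%). Both comparisons share the wild-type libraries. The median log2 fold change of the neighbours was -0.03 in control sgRNA and -0.02 in Cd4 sgRNA cells. These counts moved with the samples in the fit. Only Ly6m, Pomp, Sptlc1 and Vamp1 of the 10 were still called in control sgRNA cells when the Cd4 sgRNA libraries were left out of it. In Cd4 sgRNA cells edgeR called 13 neighbours higher and 15 lower with only the 2 groups compared in the fit. The share of all genes called in those fits is not given here, so these counts are not read as a trait of the neighbours. The calls also changed in fits that left a single library in a group, and those are not counted.

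Of the 88 neighbours, 36 held at most 3 counts in each wild-type library, and none of these reached 1 CPM in any TETact-v3 library, next to 99.5% of all such genes that stayed under 1 CPM. Genes that overlap a member were not among the 88, and 1 CPM was reached there by Pcdhgb5, described below. Around Ly6k on chromosome 15, Gml, Gml2 and Cyp11b1 held 0 or 1 counts in every library, although Ly6k itself had 268 to 829 counts in the TETact-v3 libraries. Ly6g6g, at 18.0 kb, had 0 counts in wild type, 2 and 0 in Cd4 sgRNA and 7 and 0 in control sgRNA cells. Ly6d, at 33.3 kb and detected in wild type, had a log2 fold change of 0.94 in control sgRNA (edgeR adjusted p = 0.0678) and 0.21 in Cd4 sgRNA cells. Beside Upk1b, B4galt4 at 4.13 kb had at most 2 counts and Tex55, the next counted gene, had 0 in all libraries. Islr, 2.24 kb from Stra6, and Msx2, 11.3 kb from Gm2762, were at 0 in all libraries, and Ltbr near Tuba3a had at most 1 count. Igdcc3, 3.21 kb from Igdcc4 and its relative, had 0 counts in wild type and 2 to 9 counts in the TETact-v3 libraries. Dagla, 4.49 kb from Myrf, had 0 counts in wild type, 4 and 1 in Cd4 sgRNA and 17 and 17 in control sgRNA cells.

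Other members lay beside genes that were active in wild type. Cdpf1, 0.121 kb from Ppara, had a log2 fold change of -0.11 in control sgRNA against wild type (edgeR adjusted p = 0.547), and Tmem258, 0.447 kb from Myrf, of 0.03 (adjusted p = 0.842). Cmtm7, 7.35 kb from Cmtm8, stood at 0.00 (adjusted p = 0.998). Atad1, a mitochondrial ATPase 5.37 kb from Papss2, was called higher in control sgRNA cells (log2 fold change 0.65 ± 0.15, adjusted p = 0.0260) and stood at -0.02 in Cd4 sgRNA cells (adjusted p = 0.944). Sptlc1, a subunit of serine palmitoyltransferase 16.3 kb from Gm2762, was called lower in control sgRNA cells at -0.78 ± 0.15 (adjusted p = 0.0138).

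The other neighbours that passed the test lay further away or were weakly expressed. Mapre3, a microtubule plus-end protein 15.2 kb from Dpysl5, was at 1.45 and 0.948 CPM in wild type, 3.31 and 8.03 CPM in control sgRNA cells and 2.21 and 1.75 CPM in Cd4 sgRNA cells, with a log2 fold change of 2.20 ± 0.57 in control sgRNA cells (adjusted p = 0.0358). Dync1li1 and Cyb5r3 were called higher there at 0.60 and 0.31, and Ly6m, Vamp1, Pomp, Cenpa and Slc35f6 lower at -1.28, -1.19, -0.58, -0.49 and -0.44. In Cd4 sgRNA cells Ly6m (-2.48), Vamp1 (-0.75) and Cenpa (-0.50) were called lower, and Arhgap31, 60.1 kb from Upk1b, was called higher on 1 to 2 counts in wild type against 12 in each Cd4 sgRNA library. DESeq2 did not call Arhgap31, and the stricter filter on low counts removed it.

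**Figure D5:**
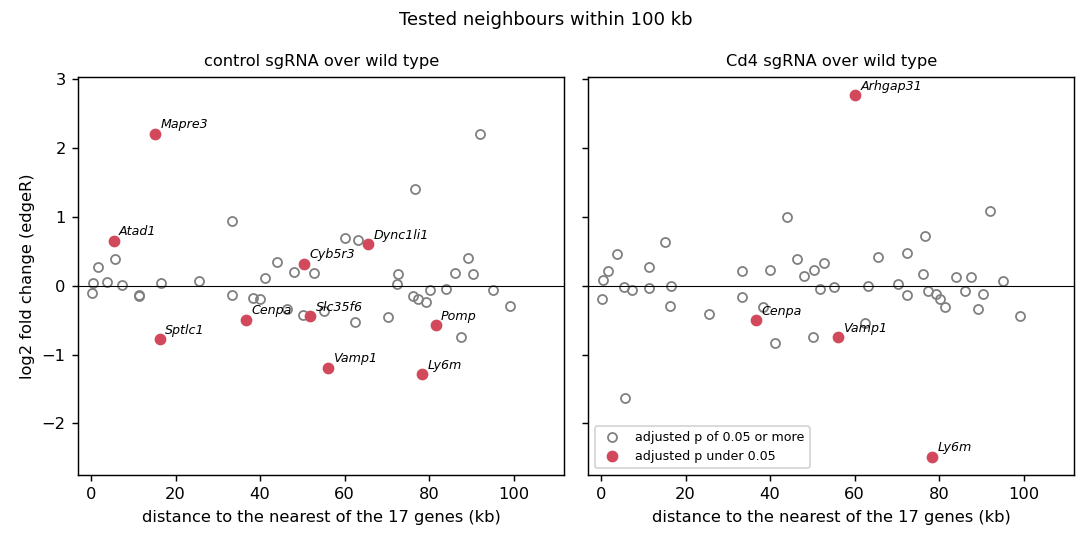
Log2 fold change against wild type (edgeR) of the 50 tested genes within 100 kb, by their distance in kb from the nearest member, in control sgRNA cells (left) and Cd4 sgRNA cells (right). Filled points passed an adjusted p of 0.05, 4 higher and 6 lower on the left and 1 higher and 3 lower on the right.

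Genes that shared exons or overlapped with a member were kept apart. Pcdhgb4 overlaps the protocadherin gamma cluster, whose genes share constant exons. How reads of these exons were assigned is not given in the sources used here. Pcdhga6 and Pcdhga7, which overlap Pcdhgb4 in the cluster, held 0 to 1 and 0 to 2 counts in the 6 libraries. The Pcdhgb4 relatives Pcdhgb5, Pcdhgb6 and Pcdhgb7 were called higher in both groups against wild type. So was Pcdhgc4 of the same cluster, with an edgeR log2 fold change of 3.11 in control sgRNA (adjusted p = 0.00414) and 2.43 in Cd4 sgRNA cells (adjusted p = 0.0185). Pcdhga1 and Pcdhgb2 were tested but not called. Pcdhgb5 held 1 and 0 counts in wild type. It stood at 0.793 and 1.26 CPM in Cd4 sgRNA and at 1.18 and 0.639 CPM in control sgRNA cells, and so missed the limit of 1 CPM in part of the libraries. Pcdhgb6 stood at 0.321 and 0.302 CPM in wild type, and between 1.40 and 2.84 CPM in the TETact-v3 libraries, lowest in control sgRNA replicate 2. Stra6 overlaps Ccdc33, which held at most 1 count in any library.

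Family relatives of the members, taken as genes with the same symbol stem and another number, were counted in the same fit. Of 43 relatives, 22 held at most 3 counts in each wild-type library and 21 could be tested, of which edgeR called 7 higher and 1 lower in control sgRNA cells (33.3% and 4.76%, next to 14.5% and 13.5% of all genes tested), and 6 higher and 1 lower in Cd4 sgRNA cells (28.6% and 4.76%, next to 9.85% and 10.7%). The protocadherins Pcdhgb5, Pcdhgb6 and Pcdhgb7 were among those higher in both. They overlap the member Pcdhgb4, and the shares called higher rest partly on them. Whether they hold reads of Pcdhgb4 was not tested. Gm37013, which overlaps Pcdhgb4 too, had 0 counts in all 6 libraries. Pcdhgb7 had 115 and 54 counts in wild type, where Pcdhgb4 had 0. Upk2, Dpysl3, Dpysl4, Igfbp1, Igfbp3, Cmtm1, Cmtm5 and Stra8 were at 0 counts in all 6 libraries, Upk3a held at most 4 counts and Tuba8 at most 4. Outside the protocadherins, those called higher in control sgRNA cells were Foxo3 (log2 fold change 1.58 ± 0.18, edgeR adjusted p = 0.00370), Cmtm4 (0.90 ± 0.17, adjusted p = 0.0149), Pdia4 (0.61 ± 0.15, adjusted p = 0.0287) and Foxo4 (0.46 ± 0.12, adjusted p = 0.0373). Foxo1, the main FOXO factor of B cells, was called lower in control sgRNA (log2 fold change -0.80) and in Cd4 sgRNA cells, at 241 and 248 CPM in wild type against 117 to 145 CPM in the TETact-v3 libraries. In Cd4 sgRNA cells Tuba1c (0.63), Pdia6 (0.56) and Pdia4 (0.76) were called higher. Papss1, the other PAPS synthase, held 645 to 3489 counts and was not called.

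Lists of genes by lineage were counted in the same fit to set the members beside other silent genes. Of the 65 germline genes silenced by methylation, 1 is a member (Tuba3a). Apart from Tuba3a, 44 held at most 3 counts in each wild-type library and 30 held at most 3 counts in all 6 libraries. Of the 23 others tested, 6 were called higher and 3 lower in control sgRNA cells, and 5 higher and 2 lower in Cd4 sgRNA cells. Of all genes tested, 14.5% were called higher and 13.5% lower in control sgRNA cells, and 9.85% and 10.7% in Cd4 sgRNA cells, and the counts of each list stand beside these shares. Among those called higher in both groups were Tuba3b, Nlrp4c, an NLR gene of the oocyte, and Tex14, a gene of germ cell bridges. The other lineage lists held no member. Against wild type, the counts called higher and lower in control sgRNA cells were 0 and 2 of 11 T-cell genes tested, 2 and 3 of 14 myeloid genes, 0 and 1 of 10 erythroid and megakaryocyte genes, 1 and 1 of 7 blood stem and progenitor genes, and 6 and 3 of 13 plasma-cell genes. They were 2 and 1 of 4 fibroblast and matrix genes, 3 and 2 of 12 neuronal and synaptic genes, and 4 and 1 of 8 epithelial genes. In Cd4 sgRNA cells the counts higher and lower were 2 and 2 of the T-cell genes, 1 and 1 of the myeloid, 0 and 2 of the erythroid and megakaryocyte, 1 and 0 of the blood stem and progenitor, and 5 and 2 of the plasma-cell genes. They were 0 and 1 of the fibroblast and matrix, 2 and 1 of the neuronal and synaptic, and 1 and 2 of the epithelial genes. Apart from Tuba3a, the members were on none of these lineage lists. Tgfb3 and Tex101, which met the limits but were left out by name, could not count as members here.

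Genes that act in the same pathways as the members were counted as well, in control sgRNA and then in Cd4 sgRNA cells against wild type. For Ppara, 2 of 20 tested target genes of PPAR alpha were called higher (Cpt2 and Acsl1) and 2 lower (among them Ehhadh), then 1 higher and 3 lower. Of 7 tested PPAR and RXR receptors and coactivators 2 were called higher and 0 lower (Ppard and Med1), then 2 and 0. For A4galt, 3 of 12 genes of glycosphingolipid synthesis were called higher and 0 lower, then 2 and 2. Among those called higher were B3gnt5 and St3gal5, the GM3 synthase, the latter at 5.69 and 5.22 CPM in wild type against 12.6 and 13.4 CPM in control sgRNA cells.

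For Papss2, 1 of 20 genes of sulfate activation and sulfotransferases was called higher and 3 lower, then 1 and 4. Hs3st3b1, a heparan sulfate sulfotransferase, rose from 1.97 and 1.72 CPM to 11.4 and 14.1 CPM in control sgRNA and to 14.6 and 13.7 CPM in Cd4 sgRNA cells, and Chst3, a chondroitin sulfotransferase, fell from 243 and 238 CPM to 77.1 and 68.6 CPM and to 73.5 and 63.3 CPM. For Stra6, 3 of 7 retinoid genes were called higher and 0 lower, then 2 and 0. Aldh1a2, which makes retinoic acid, had 5 and 1 counts in wild type, 1.39 and 1.59 CPM in Cd4 sgRNA and 0.872 and 1.02 CPM in control sgRNA cells, and the receptor gene Rarg at 0.0402 and 0.129 CPM, 0.510 and 0.495 CPM, and 0.946 and 1.29 CPM.

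For Igfbp2, 1 of 4 tested genes of the IGF system was called higher and 0 lower, then 0 and 1. The gene called was Pappa2, a protease of IGF-binding proteins, with 0 counts in wild type, 0.567 and 0.899 CPM in control sgRNA and 0.368 and 0.351 CPM in Cd4 sgRNA cells. For Pdia5, 3 of 13 disulfide isomerases and oxidases were called higher and 3 lower, then 4 and 3. For the tubulins, 3 of 12 were called higher and 1 lower, then 5 and 1, and for the Ly6 and uPAR family 2 of 11 higher and 4 lower, then 2 and 2, with Plaur and Cd59a higher in both. For Foxo6, 5 of 19 FOXO factors and target genes were called higher and 5 lower, then 0 and 7, and for Myrf 0 of 3 tested myelin genes were called higher and 1 lower (Cnp), then 0 and 1. The background was 14.5% higher and 13.5% lower in control sgRNA cells and 9.85% and 10.7% in Cd4 sgRNA cells, and with 3 to 20 genes a list no share was read against it. When the TETact-v3 groups were compared with each other, 0 genes of these pathway lists were called, against a background of 0.0242% higher and 0.0483% lower.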

How the data were processed

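Raw counts were deposited by the authors, who used Rsubread for alignment to mm10 and featureCounts, with its RefSeq annotation, for counts by Entrez gene. The strand setting is not given in the sources used here. Each of the 6 libraries, grouped by its label, held 23194920 to 121623410 counts, and a table that repeats them was not used. Symbols and positions came from RefSeq of GRCm38.p6, which named 25275 of 27179 identifiers. CPM used the column totals. The study's filters were applied (no duplicated symbols, no mitochondrial or ribosomal RNA genes, filterByExpr), which left 12418 genes. The main test was edgeR 4.0.16 (glmQLFit, robust, TMM), in which all libraries were fitted by group alone, two-sided, Benjamini-Hochberg at 0.05, in R 4.3.3. Alternatives were limma 3.58.1 (voomLmFit), DESeq2 1.42.0, other scalings, filters, samples and limits. The tests were tested on simulated data.

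The members and lists were chosen with earlier results of these data known, and the lists of pathways and families were added after the members were known. Every member was named. Other genes were named if they lay nearest to a limit or a member, were called among the neighbours or relatives, or led a list. Vim, Wnt6, Tuba3b, the other genes of the protocadherin cluster, the silent neighbours and relatives and the pathway genes were picked after their values were seen. Replicates were separate biological samples per the methods. Their counts differed beyond counting noise in each group (chi-square per degree of freedom 6.90 to 243), so they were kept as separate libraries. Deviations of same-numbered libraries correlated at 0.014, -0.035 and -0.14, so the numbers were not taken to pair samples. The values of some list genes are not reported here. Intervals and floors cover counting error only. Reads without molecular identifiers are not independent molecules.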

Additional observations from a re-analysis of the deposited data

How the results depend on the processing

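The number of genes found was 4 with 0 counts in each wild-type library, 35 with at most 10 counts, 42 with at least 0.5 CPM and 7 with at least 2 CPM, and 17 to 26 when single libraries were left out. The 26 came without wild-type replicate 1, and all 17 members were among them. Members called higher with the Cd4 sgRNA were 0 in edgeR and 1 in DESeq2, and members called lower were 0 and 1. Fits that left a single library in a group are described by their log2 fold changes only. When single libraries were left out, the log2 fold change (Cd4 sgRNA over control sgRNA) turned its direction for 5 members, and ran from -0.20 to 0.52 for Tuba3a, from -0.22 to 0.19 for Mtus2, from -0.72 to 0.066 for Ppara, from -0.53 to 0.13 for Pdia5 and from -1.90 to 0.55 for Igfbp2. It turned without control sgRNA replicate 2 in these except Mtus2, which turned without Cd4 sgRNA replicate 2 and, at 0.043, without control sgRNA replicate 1.

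Neighbours called higher in control sgRNA cells were 8 in DESeq2, 0 with only the 2 groups compared, 2 within 50 kb, 12 within 250 kb and 0 to 17 with single libraries left out. Those called lower were 2 within 50 kb, 18 within 250 kb and 0 to 19. In Cd4 sgRNA cells neighbours called higher were 3 in DESeq2, 3 with library size only, 0 under the stricter filter, 13 with only the 2 groups compared, 0 within 50 kb, 9 within 250 kb and 0 to 0 with single libraries left out, and those called lower were 15, 1, 11 and 0 to 1 with only the 2 groups, the 2 windows and single libraries left out. The windows hold other numbers of genes by construction, and the cause of the other shifts was not tested.

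With the replicate number as a block, 0 members were called in either direction, the neighbours called were 3 higher and 5 lower in control sgRNA and 1 higher and 3 lower in Cd4 sgRNA cells, and no other count moved by over 1.5 times. The numbers of the Cd4 sgRNA libraries exchanged, an alternative chosen after seeing the data, also gave 0 members in either direction. The legacy quasi-likelihood method of edgeR was added after seeing the data too. No direction of a called neighbour, relative or list gene turned under the RLE, library-size, 2-group, voomLmFit or DESeq2 fits, but calls were lost. In control sgRNA cells against wild type, 49 of 82 called list genes were still called with only the 2 groups compared. Of the 8 called relatives, 5 were, without Foxo4, Pdia4 and Pcdhgb7. In Cd4 sgRNA cells that fit kept all 70 list genes and 7 relatives, and voomLmFit kept 60 and 5.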
